A study of Sus scrofa with 3 samples.

Results

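The enzymes that add acetyl groups to histone lysines and those that remove them, with the coactivators, corepressor scaffolds and adaptor subunits that work with them, were examined in porcine spermatogonia. Genes were taken by symbol from the deposited expression table: those of the histone deacetylase (HDAC), sirtuin (SIRT), lysine acetyltransferase (KAT), nuclear receptor coactivator (NCOA), TADA and ING families, and corepressor scaffolds, EP300, CREBBP and HAT1. This gave 44 of 18730 genes. RNA had been measured in 3 libraries, called S1, S2 and S3 here, of germ cells sorted from pigs 90 days old for SSEA4, a glycolipid of the cell surface. All libraries belong to the same group, SSEA4-positive spermatogonia. The labels give no breed, sex or treatment, and whether each library is a separate animal or a pool is not stated. Undifferentiated spermatogonia, the other population that the study names, were not analysed here, so levels are compared between genes and with fixed levels, and not between populations.

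Acetylation of histone tails loosens their contact with DNA and is read by bromodomain proteins, and it is generally found at active genes. Acetyltransferases take the acetyl group from acetyl-CoA. Deacetylases of classes I, II and IV use zinc, whereas sirtuins consume NAD. Most of these enzymes act within large complexes, such as SIN3, NuRD and NCoR for deacetylases and SAGA, ATAC and NuA4 for acetyltransferases. In the testis, histone acetylation is known above all from its sharp rise in spermatids of mouse and rat, before protamines replace histones.

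Values are FPKM, which divides the fragments of a gene by its length and by the mapped fragments of the library, so levels can be compared between genes. The columns summed to 859642 in S1, 855276 in S2 and 781871 in S3, of which mitochondrially encoded genes took between 52.7% and 59.3%. The depth of the libraries is unknown. Germ cell identity was checked with marker genes. All 6 measured germ cell markers lay above 1 FPKM, beside 65.6% of all genes. They were led by SYCP3 at 403 ± 32.6 FPKM (SD, n = 3) and STK31 at 145 ± 15.1. All 8 markers of undifferentiated spermatogonia also lay above 1 FPKM. No separate list was made for spermatocytes, and SYCP3, the highest germ cell marker, codes for a protein of the meiotic synaptonemal complex. Spermatogonia were therefore not told apart from meiotic germ cells. DAZL was not analysed here. Of 5 measured genes listed for differentiating spermatogonia 3 lay above 1 FPKM, beside 65.6% of all genes, with KDM1B at 59.5 ± 0.777 and KIT at 17.1 ± 1.40. The other 2 lay below, beside 28.5%, with NEUROG3 at 0.0402 ± 0.0230. SOHLH1 was not analysed here. Whether each listed gene, such as KDM1B or NEUROG3, is particular to that stage was not tested. Markers of other cells were detected too. Of 10 Sertoli cell markers 7 lay above 1 FPKM, beside 65.6% of all genes, with BEX1 at 263 ± 12.7 and CLU at 228 ± 100.1, while DHH stood at 0.0203 ± 0.0205. Library sums over these 10 markers were 814 FPKM for S1, 690 for S2 and 502 for S3. The summed levels ran from 7.57 to 17.8 FPKM for 6 Leydig cell markers, from 71.6 to 106 for 7 peritubular and fibroblast markers, from 15.8 to 20.2 for 5 endothelial markers and from 21.8 to 25.8 for 7 leukocyte markers. Most of the leukocyte sum came from CD74, at 17.0 ± 2.25 FPKM. LHCGR, a Leydig cell marker, was listed at 0 in 2 of the 3 libraries. The sums of the 8 spermatid markers were 108 FPKM for S1, 35.7 for S2 and 56.2 for S3. Among them PRM1 had 51.0, 1.53 and 11.0 FPKM, whereas SPACA1 was highest in S3, at 22.5, 19.6 and 28.7. In these bulk samples, fewer cells of a type and less RNA per cell cannot be told apart.

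Nearly all of the 44 genes were expressed above 1 FPKM, and most above 10 FPKM. Every gene had a value above 0 in every library. The median of their mean levels was 17.4 FPKM, beside 3.93 FPKM over all 17949 genes with a value. Each gene was tested with limma on log2(FPKM + 1), on which scale differences of low genes are understated. Above 1 FPKM lay 41 of 44 genes, beside 65.6% of all genes, and below it lay HDAC10 and SIRT4, beside 28.5% of all genes. HDAC11 was not told apart from 1 FPKM. Above 10 FPKM lay 28 of 44 genes, beside 30.3% of all genes, while 10 lay below, beside 64.0% of all genes, and 6 were not told apart from 10 FPKM. The 10 FPKM level depends on the scale of the table. Leaving out the mitochondrially encoded and ribosomal protein genes and scaling up the others raised the median of all genes by 1.15 on the log2 scale. Of the 44 genes 37 then lay above 10 FPKM, beside 8282 of all 17874 genes, and 5 below, beside 8422. In that setting ING5, KAT8 and SIRT2, otherwise below 10 FPKM, lay above it, ING2 and SIRT3 were no longer told apart from it, and the 6 genes not told apart from it otherwise lay above it. Rescaling each library to 1000000, as TPM would be, raised the median of all genes by 0.22. It placed 32 of the 44 genes above 10 FPKM, beside 5924 of all 17949 genes, and 8 below, beside 10723.

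**Figure D1:**
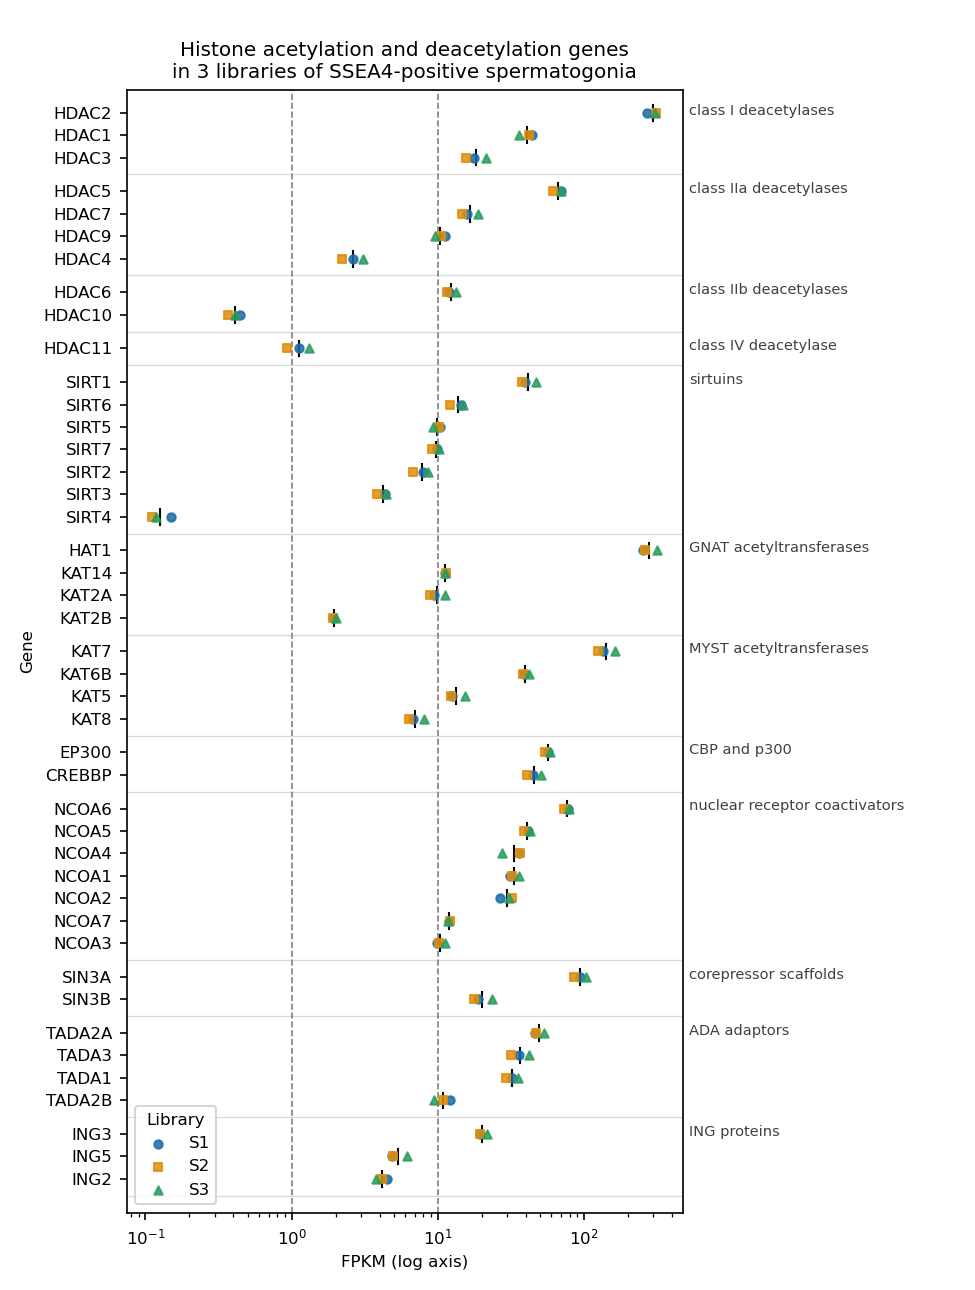
Expression of 43 of the 44 genes by class. The horizontal axis is FPKM on a log scale, each point is a library (S1, S2 or S3), the short black line is the mean of 3 libraries, and dashed lines mark 1 and 10 FPKM. HDAC2 and HAT1 stand at the top, near 298 and 278 FPKM, and SIRT4 is the lowest at 0.127 FPKM.

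The class I deacetylases, which act in the nucleus as the catalytic subunits of corepressor complexes, were led by HDAC2. HDAC2 (ENSSSCG00000004432) had 271, 313 and 308 FPKM in S1, S2 and S3. Its mean, 298 ± 23.2 FPKM (SD, n = 3), was the highest of the 44 genes and exceeded that of 99.2% of all genes with a value. HDAC1 (ENSSSCG00000003613), the close paralogue of HDAC2 that joins the same SIN3, NuRD and CoREST complexes, had 44.4, 42.2 and 35.9 FPKM. The values of HDAC2 and HDAC1 did not overlap. HDAC2 stood 6.10, 7.42 and 8.59 times above HDAC1 in S1, S2 and S3, a log2 ratio of 2.87 ± 0.25 (SD, n = 3). The 2 genes code for similar proteins, and whether reads were shared between them was not tested.

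HDAC3, the deacetylase of the NCoR complex, had 17.8, 15.6 and 21.4 FPKM in the 3 libraries. It was lower than HDAC1 in each of them, at a log2 ratio of HDAC3 to HDAC1 of -1.17 ± 0.37. Of the summed FPKM of these class I genes, HDAC2 took 83.4% ± 1.76 (SD, n = 3), HDAC1 11.5% ± 1.76 and HDAC3 5.13% ± 0.846. HDAC8, the remaining class I enzyme, has no symbol in the deposited table and is not among the 44 genes. The reference table of Ensembl names gives HDAC8 to a row with 0.613, 0.690 and 0.477 FPKM, which lay below 1 FPKM (limma, log2 difference -0.33, adjusted p = 0.00135). That row stood at a log2 ratio to HDAC1 of -6.12 ± 0.16.

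Class IIa deacetylases, which shuttle between nucleus and cytoplasm and repress through bound transcription factors, were led by HDAC5. HDAC5 had 69.4, 61.3 and 69.6 FPKM, whereas HDAC4 had 2.63, 2.23 and 3.10 FPKM. The levels of these paralogues were far apart in every library, with a log2 ratio of HDAC5 to HDAC4 of 4.66 ± 0.16 (SD, n = 3), or 25.4-fold. HDAC7 averaged 16.5 ± 2.18 FPKM and HDAC9 10.4 ± 0.799. HDAC9 was not told apart from 10 FPKM (limma, adjusted p = 0.488), but lay above it once libraries were scaled to sum to 1000000 (log2 difference 0.30). HDAC5 took 69.3% ± 0.621 of the class IIa sum and HDAC4 2.74% ± 0.288.

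The class IIb pair also differed widely. HDAC6, the cytoplasmic deacetylase of tubulin, had 12.03, 11.5 and 13.3 FPKM. HDAC10, known as a polyamine deacetylase, had 0.444, 0.369 and 0.408 FPKM. The log2 ratio of HDAC10 to HDAC6 was -4.92 ± 0.14. HDAC10 lay below 1 FPKM (limma, log2 difference -0.51 with a standard error of 0.034, adjusted p = 3.02e-05). Without mitochondrially encoded and ribosomal protein genes it stood at that level (log2 difference 0.023). HDAC11, the sole class IV enzyme, had 1.12, 0.934 and 1.32 FPKM and was not told apart from 1 FPKM (limma, adjusted p = 0.281). Rescaling to 1000000 placed HDAC11 above that level, at a log2 difference of 0.23. Without mitochondrially encoded and ribosomal protein genes HDAC11 also lay above it, at 0.94. Over the 10 HDAC genes named in the table, HDAC2 took 63.7% ± 2.78 of the summed FPKM, HDAC5 14.3% ± 1.30 and HDAC1 8.78% ± 1.26.

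Among the 7 sirtuins, the NAD-dependent deacylases, SIRT1 was the highest and SIRT4 the lowest in each library. SIRT1 (ENSSSCG00000010235), a nuclear deacetylase of histones and transcription factors, had 39.8, 38.0 and 47.0 FPKM and took 47.6% ± 1.98 (SD, n = 3) of the sirtuin sum. SIRT6 and SIRT7, the other nuclear sirtuins, averaged 13.9 ± 1.46 and 9.73 ± 0.551 FPKM, SIRT7 being best known from the nucleolus. Their order was the same in all 3 libraries, with a log2 ratio of -1.58 ± 0.11 for SIRT6 to SIRT1 and of -0.51 ± 0.07 for SIRT7 to SIRT6. SIRT2, mainly cytoplasmic, had 7.90, 6.77 and 8.65 FPKM, at a log2 ratio to SIRT1 of -2.42 ± 0.08.

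The 3 mitochondrial sirtuins were at 3 separate levels. SIRT5, which removes succinyl and related groups, averaged 9.95 ± 0.590 FPKM. SIRT3, the main deacetylase of mitochondrial proteins, averaged 4.20 ± 0.338 FPKM. SIRT4 (ENSSSCG00000009901) had 0.1504, 0.111 and 0.118 FPKM, the lowest level of the 44 genes, and lay below 1 FPKM (limma, log2 difference -0.83 with a standard error of 0.025, adjusted p = 8.92e-07). Values of SIRT5, SIRT3 and SIRT4 did not overlap. SIRT5 and SIRT7 were not told apart from 10 FPKM (limma, adjusted p = 0.912 and 0.597), and SIRT2 and SIRT3 lay below it, although SIRT2, SIRT5 and SIRT7 lay above it and SIRT3 was not told apart from it without the mitochondrially encoded and ribosomal protein genes. The call of SIRT2 was also lost without S1, without S2 and after rescaling to 1000000.

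**Figure D2:**
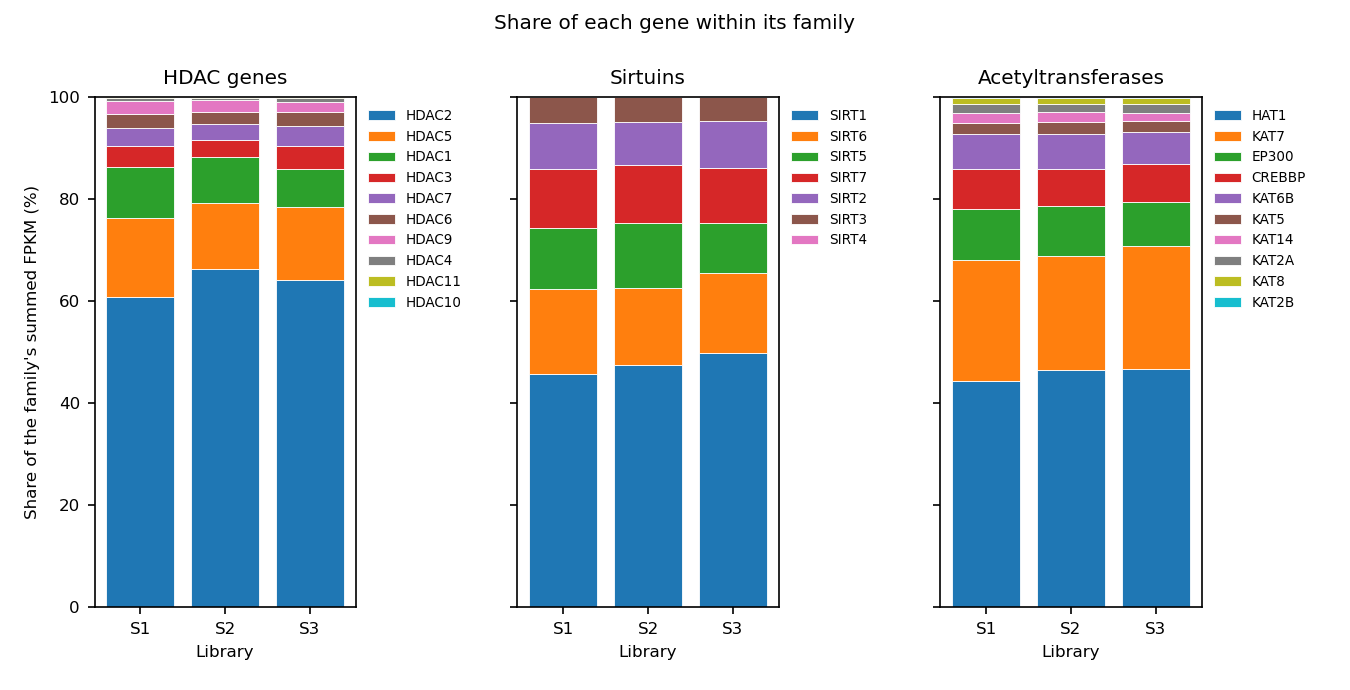
Share of each gene in the summed FPKM of its family, in percent, stacked by library, for the 10 HDAC genes, the 7 sirtuins and 10 acetyltransferases. HDAC2 fills 60.8% to 66.3% of the HDAC bars, SIRT1 45.8% to 49.7% of the sirtuin bars, and HAT1 with KAT7 most of the acetyltransferase bars.

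Of the acetyltransferases, HAT1 and KAT7 were far above the others. HAT1 (ENSSSCG00000015952), which acetylates newly made histone H4 before it is placed on DNA, had 253, 261 and 319 FPKM. KAT7 (ENSSSCG00000017553), a MYST enzyme also known as HBO1 that acts with ING and JADE or BRPF subunits, had 135, 126 and 164 FPKM. HAT1 stood at a log2 ratio to KAT7 of 0.97 ± 0.08 (SD, n = 3), higher in 3 of 3 libraries. Over 10 acetyltransferase genes, HAT1 took 45.9% ± 1.31 of the summed FPKM and KAT7 23.4% ± 0.900. Both were highest in S3. HAT1 and HDAC2, the 2 highest of all 44 genes, could not be put in order, since HDAC2 was higher in S1 and S2 and HAT1 in S3.

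The other MYST enzymes were lower. KAT6B averaged 39.9 ± 1.92 FPKM, and KAT6A was not analysed here. KAT5, also called TIP60 and the enzyme of the NuA4 complex, had 12.6, 12.4 and 15.3 FPKM. KAT8, also called MOF and the enzyme of the MSL and NSL complexes, had 6.75, 6.38 and 8.02 FPKM. KAT7 stood 10.5-fold above KAT5, at a log2 ratio of 3.40 ± 0.05, and KAT8 stood at a log2 ratio to KAT5 of -0.93 ± 0.03. These ratios had small spreads between libraries, although each of the 3 genes was highest in S3 and lowest in S2.

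The GNAT enzymes of the SAGA and ATAC complexes were lower. KAT2A, also called GCN5, had 9.39, 8.81 and 11.3 FPKM, whereas its paralogue KAT2B, also called PCAF, had 1.93, 1.92 and 2.01. The log2 ratio of KAT2B to KAT2A was -2.33 ± 0.15. KAT14, the second acetyltransferase of ATAC, had the smallest spread of the 44 genes, at 11.2, 11.4 and 11.2 FPKM, a coefficient of variation of 1.11%. It lay above 10 FPKM by a log2 difference of 0.15 (limma, adjusted p = 0.0417), a call that was lost without S1 or without S2. CBP and p300, the broad coactivator acetyltransferases, were close to each other. CREBBP, which codes for CBP, had 44.7, 40.8 and 50.9 FPKM, and EP300, which codes for p300, had 57.0, 54.5 and 58.7. CREBBP was lower in 3 of 3 libraries, at a log2 ratio to EP300 of -0.33 ± 0.11.

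All 7 nuclear receptor coactivators lay above 1 FPKM, beside 65.6% of all genes, and 6 of them above 10 FPKM, beside 30.3%. NCOA6, a subunit of histone methyltransferase complexes, was highest with 78.1, 73.8 and 78.8 FPKM and took 32.4% ± 1.06 of their sum. NCOA5 averaged 41.2 ± 2.07 FPKM. Of the p160 coactivators, which bind hormone receptors and recruit CBP and p300, NCOA1 had 31.3, 32.3 and 36.0 FPKM, NCOA2 had 26.7, 32.5 and 31.0, and NCOA3 had 9.85, 10.2 and 11.2. NCOA1 and NCOA2 overlapped: the log2 ratio of NCOA2 to NCOA1 was -0.15 ± 0.13, with NCOA2 higher in 1 of 3 libraries. NCOA3 was apart from both, at a log2 ratio to NCOA1 of -1.67 ± 0.01, the smallest SD among the ratios compared. NCOA4, best known as the receptor for the autophagy of ferritin, had 36.3, 36.5 and 27.7 FPKM, and NCOA7 averaged 11.9 ± 0.210. NCOA7 was not told apart from 10 FPKM without S1 or without S2.

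The corepressor scaffold SIN3A, around which HDAC1 and HDAC2 assemble, was the fourth highest gene, with 93.7, 86.2 and 104 FPKM. Its paralogue SIN3B had 18.8, 17.7 and 23.5 FPKM, at a log2 ratio of SIN3B to SIN3A of -2.25 ± 0.09. NCOR1 has no symbol in the deposited table. The reference table gives NCOR1, the scaffold that carries HDAC3, to a row with 43.5, 39.4 and 57.7 FPKM, highest in S3.

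Of the 4 TADA genes, called ADA adaptors here, TADA2A, TADA2B and TADA3 link KAT2A and KAT2B to their complexes. TADA2A, the adaptor of ATAC, had 46.7, 47.0 and 53.8 FPKM, against 12.1, 10.9 and 9.48 FPKM for TADA2B, the adaptor of SAGA. The log2 ratio of TADA2B to TADA2A was -2.18 ± 0.29. TADA3, shared by both complexes, averaged 36.8 ± 5.15 FPKM and TADA1, a SAGA subunit, 32.4 ± 3.10, at a log2 ratio of TADA3 to TADA1 of 0.18 ± 0.06. By their means all 4 adaptors stood above KAT2A and KAT2B, but the values of TADA2B and KAT2A overlapped. ING proteins read methylated histone H3 for the enzyme complexes that hold them. ING3, a NuA4 subunit, was highest at 19.5, 19.4 and 21.8 FPKM. ING5 averaged 5.36 ± 0.734 and ING2, a SIN3 subunit, had 4.47, 4.15 and 3.80 FPKM. ING1, also a SIN3 subunit, was named by the reference table only, at 21.8, 20.2 and 22.4 FPKM, and the log2 ratio of ING2 to it was -2.38 ± 0.16.

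In all, 19 pairs of related genes were compared within libraries, and 18 had the same direction in all 3 libraries. Of the 19, 13 differed by more than 2-fold. Such ratios do not depend on the scale of a library. With 3 libraries an exact sign-flip permutation test, two-sided, cannot give a p under 0.25, which was the value of each of the 18 pairs (adjusted p = 0.264 over 19 pairs), and NCOA2 to NCOA1 had p = 0.5. The mean log2 ratio exceeded 2 SD for 18 pairs. That is a description, and how often other pairs of genes would do so was not tested.

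**Figure D3:**
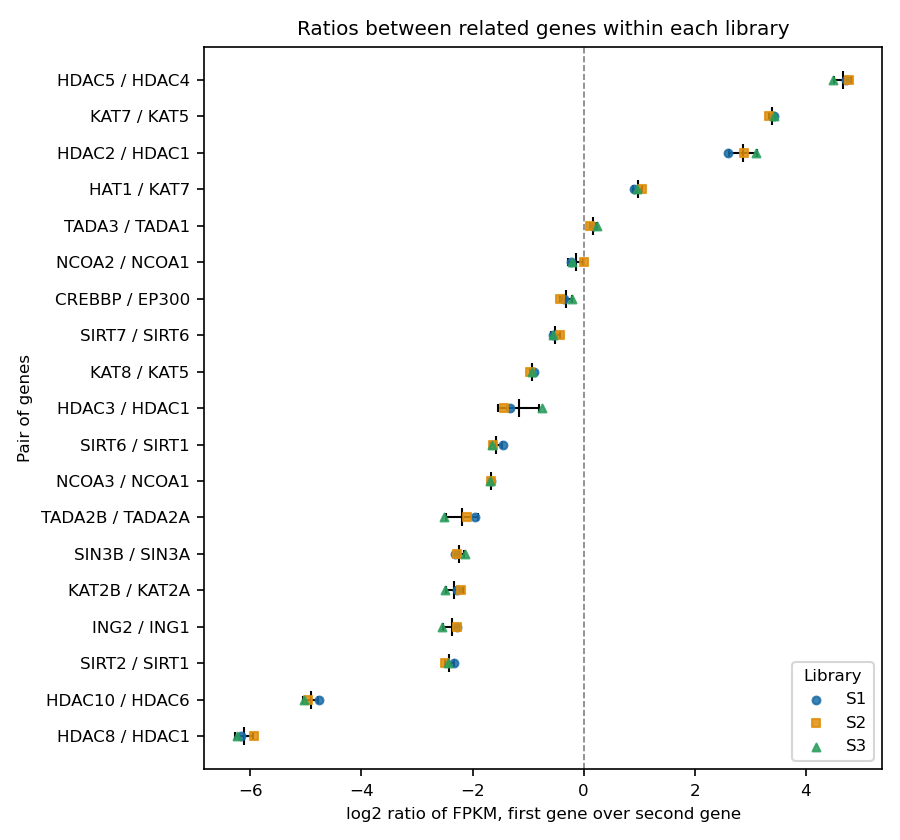
Log2 ratio of FPKM of the first gene over the second gene for 19 pairs of related genes. Points are the 3 libraries, the black mark is their mean and the bar is 1 SD. HDAC5 to HDAC4 is the highest ratio at 4.66, HDAC8 to HDAC1 the lowest at -6.12, and only NCOA2 to NCOA1 has libraries on both sides of 0.

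Ordered by mean, 25 of the 43 neighbouring pairs of the 44 genes kept their order in every library and 18 did not. In that order, SIRT1, NCOA5, HDAC1 and KAT6B formed a run at 39.9 to 41.6 FPKM whose order changed between libraries. A second such run, from KAT14 to SIRT7 at 9.73 to 11.2 FPKM, held KAT14 and the 6 genes not told apart from 10 FPKM. At the lower end HDAC4, KAT2B, HDAC11, HDAC10 and SIRT4 followed each other in the same order in all 3 libraries.

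The libraries differed little for these genes. The highest library exceeded the lowest by at most 1.41-fold. The median coefficient of variation was 9.45% for the 44 genes and 9.34% for the 12340 genes that averaged 1 FPKM or more. It was largest for HDAC11 at 17.0%, SIRT4 at 16.6%, HDAC4 at 16.5%, HDAC3 at 16.04% and SIN3B at 15.3%. S3 was the highest library for 31 of 44 genes (70.5%), beside 50.0% of the 12340 genes, and S2 the lowest for 29 of 44 (65.9%), beside 47.98%. The median difference of S3 from the mean of the other 2 libraries was 0.15 on the scale of log2(FPKM + 1), beside 0.05 over the 12340 genes. For S2 it was -0.12, beside -0.07, and for S1 -0.01, beside 0.02. After rescaling to 1000000 the S3 value was 0.28, beside 0.17, and without the mitochondrially encoded and ribosomal protein genes 0.08, beside -0.01. These differences have no test, because no label sets a library apart.

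A smaller number of genes went the other way. Of the 44, 8 (18.2%) were lowest in S3, beside 33.1% of the 12340 genes: HDAC1, HDAC9, SIRT5, NCOA4, NCOA7, TADA2B, ING2 and KAT14. NCOA4 was lower in S3 by the widest margin, at -0.38 on the scale of log2(FPKM + 1), followed by HDAC1 at -0.26 and TADA2B at -0.26. All 3 were still lower in S3 after rescaling to 1000000, NCOA4 at -0.25, HDAC1 at -0.13 and TADA2B at -0.14. NCOA7 and KAT14 were then higher in S3 than in the mean of the others, at 0.089 and 0.11. Among paralogues, the low value of HDAC1 in S3 stood beside an HDAC2 value that was not low there, and that of TADA2B beside the highest value of TADA2A. The sum of the 10 Sertoli cell markers was also lowest in S3, and their median difference there was -0.43. Among these 10, CLU had 325, 234 and 125 FPKM and BEX1 272, 268 and 248. DHH was lowest in S2, at 0.0437, 0.00538 and 0.0118. The 8 markers of undifferentiated spermatogonia had sums of 216 FPKM for S1, 199.6 for S2 and 287 for S3, and a median difference of 0.35 in S3. Among these 8, NANOS3 had 50.0, 43.7 and 98.1 FPKM, whereas ITGA6 was lowest in S3, at 49.3, 47.3 and 47.0. The part of other cell types in these differences was not tested.

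**Figure D4:**
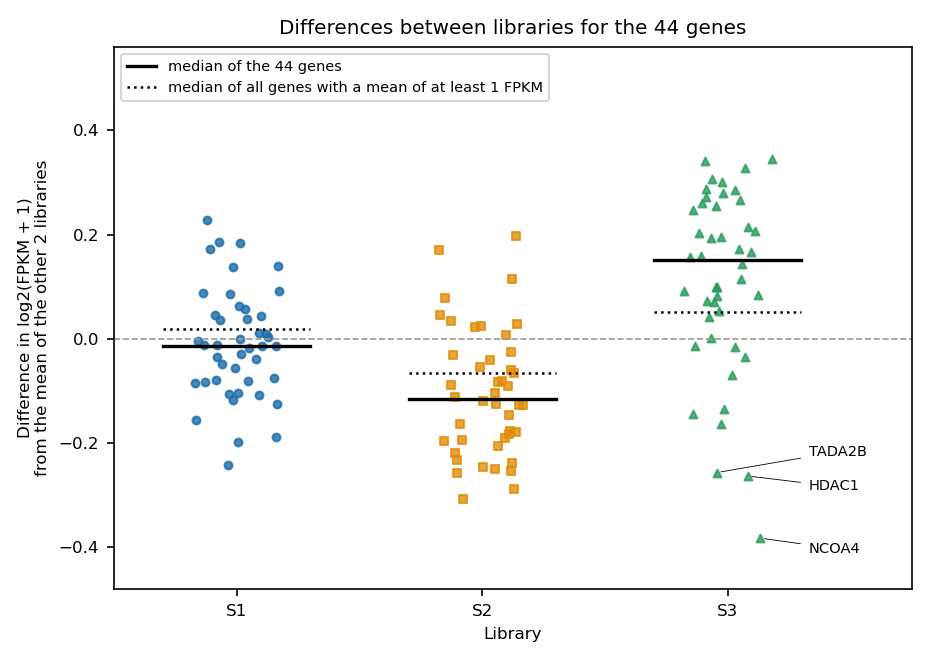
Difference of each library from the mean of the other 2 libraries in log2(FPKM + 1), one point per gene for the 44 genes. Solid lines are medians over the 44 genes (-0.01, -0.12 and 0.15 in S1, S2 and S3) and dotted lines medians over all genes averaging 1 FPKM or more (0.02, -0.07 and 0.05). NCOA4, HDAC1 and TADA2B are the lowest in S3.

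Partner subunits of the same complexes, which are not among the 44 genes, were listed by role. Of 28 measured partners of deacetylases, all lay above 1 FPKM, beside 65.6% of all genes, and 27 above 10 FPKM, beside 30.3%. GPS2, of the NCoR complex, averaged 264 ± 39.7 FPKM, ARID4B, of SIN3, 188 ± 11.4, and PHF21A, of CoREST, 117 ± 7.70. At the other end were MBD2, a methyl-CpG reader of NuRD, at 13.7 ± 2.01, and SAP30L, of SIN3, at 7.83 ± 0.448. Of 42 measured partners of acetyltransferases, all lay above 1 FPKM. Above 10 FPKM lay 37 of them, beside 30.3% of all genes, and 3 lay below it, beside 64.0%. MORF4L1, which joins NuA4 and SIN3, averaged 546 ± 80.0, SUPT20H, of SAGA, 228 ± 33.6, and SGF29, of SAGA and ATAC, 197 ± 20.2, while KANSL3, of NSL, stood at 7.45 ± 0.0730 and TAF6L, of SAGA, at 3.74 ± 0.241. The median of log2(FPKM + 1) was 5.21 for the deacetylase partners and 5.07 for the acetyltransferase partners, beside 4.19 for the 44 genes and 2.30 for all genes with a value. RBBP7 is on both lists, and RBBP4, TBL1X, MIDEAS and MRGBP were not analysed here.

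Readers of acetyl-lysine were expressed alongside the enzymes. Of 22 measured readers, 21 lay above 1 FPKM, beside 65.6% of all genes, and 19 above 10 FPKM, beside 30.3%. Their median was 5.19 on the log2 scale, beside 2.30 for all genes with a value. BRD7 averaged 232 ± 12.96 FPKM, BRD2 172 ± 9.97 and TRIM24 158 ± 13.01, while DPF3 stood at 3.74 ± 0.324 and DPF1 lay below 1 FPKM at 0.295 ± 0.0864. BRDT, the testis-specific member of the BET bromodomain family, was chosen after its values were seen and had 53.9, 56.2 and 70.2 FPKM. Genes that supply acetyl-CoA and NAD spread more widely. Of 12 measured, 11 lay above 1 FPKM, beside 65.6% of all genes. Above 10 FPKM lay 5, beside 30.3%, and below it lay 5, beside 64.0%. NAMPT, the rate-limiting enzyme of NAD salvage, averaged 127 ± 14.3 FPKM, PDHA1, of pyruvate dehydrogenase, 58.9 ± 1.41, and ACLY, which makes acetyl-CoA from citrate, 55.2 ± 5.81. NADSYN1 stood at 2.28 ± 0.231. ACSS2, which makes acetyl-CoA from acetate, had 0.987, 1.02 and 1.22 FPKM and was not told apart from 1 FPKM.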

How the data were processed

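Ribosomal RNA was depleted from total RNA before directional library construction and 150 bp paired reading, per the labels' protocols. The same protocols give cutadapt 1.9.3 for trimming, HISAT2 2.0.4 for alignment and Cuffdiff for gene-level values. The authors deposited these as FPKM, per the labels' protocols, although the table's name says TPM. The protocols name susScr3 and the submitters' processing notes also Sscrofa11.1, so no coordinates are given. Depth could not be recovered: among 1105 genes between 0 and 0.15 FPKM in every library, at most 2 shared a ratio of S1 to S2 (to 4 decimals). The column names do not tell which labelled sample each column is. The p-values measure only the spread between libraries, which may be technical.

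Of the 44 genes, 43 had the same symbol in the reference table of Ensembl names, and NCOA6 had none there. That table alone named NCOR1, HDAC8 and ING1. Values under 1e-06, in 170 genes, were set to 0. Each of 17949 genes was tested in limma 3.58.1 (R 4.3.3) on log2(FPKM + 1) against 1 and 10 FPKM, with an intercept only, eBayes with trend, Benjamini-Hochberg adjustment over all of them and a threshold of 0.05. The test was tested on simulated data. Pairs were compared by an exact sign-flip permutation test (scipy 1.17.1). Genes outside the 44 were named as the 3 highest and 2 lowest of each list, or, for markers, from the 2 highest and the lowest. Library values are given for the highest and lowest gene of each class, for pairs and for the largest coefficients of variation, with KAT14, NCOA4 and BRDT added after their values were seen. The 44 genes, the lists and the pairs were chosen with earlier results of these data known. KAT6A and ING4 were not analysed here, so 2 of 21 listed pairs were not compared. The values of 1 of the 44 genes are not reported here, though it is in all counts and medians.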

Additional observations from a re-analysis of the deposited data

How the results depend on the processing

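No paired analysis was possible because all libraries are in a single group. The number of genes above each level stayed within 1.5 times under every alternative run: 41 to 42 above 1 FPKM and 25 to 37 above 10 FPKM. Leaving out each library in turn gave 41 above and 2 below 1 FPKM in each case. Of all 17949 genes, 11399 to 11851 then lay above 1 FPKM and 4840 to 5091 below. Against 10 FPKM it gave 25 to 29 above and 9 to 10 below. Of all genes, 5100 to 5494 then lay above 10 FPKM and 11013 to 11544 below. Below 1 FPKM lay 0 of these genes when a mean of at least 0.5 FPKM was required, since HDAC10 and SIRT4 were then not tested. Of all 13685 genes, 798 then lay below it. Without the mitochondrially encoded and ribosomal protein genes 1 lay below it, beside 3280 of all 17874 genes. In that last setting, which scales the other genes up, 5 lay below 10 FPKM, and log2 differences had the opposite sign for HDAC10 against 1 FPKM, at 0.023, and against 10 FPKM for ING2 at 0.064, SIRT3 at 0.084, ING5 at 0.40, KAT8 at 0.78, SIRT2 at 0.91, SIRT7 at 1.22, KAT2A at 1.23 and SIRT5 at 1.26. After rescaling to 1000000 the sign also changed for SIRT5, at 0.24, which then lay above 10 FPKM, and for KAT2A at 0.22 and SIRT7 at 0.21, which had no call in either case. KAT8 at -0.22 and SIRT2 at -0.093 then lost their calls below 10 FPKM, and HDAC9 at 0.30, NCOA3 at 0.29 and TADA2B at 0.35 lay above it. HDAC11 then lay above 1 FPKM at 0.23, and at 0.94 without the mitochondrially encoded and ribosomal protein genes. Calls against 10 FPKM were lost without S1 for HDAC6, KAT14, NCOA7 and SIRT2 and without S2 for KAT14, NCOA7 and SIRT2, and TADA2B lay above 10 FPKM without S3, at 0.19. A pseudocount of 0.1, quantile normalization and eBayes without trend changed no call of the 44 genes. No ratio of a pair changed sign on the scale of FPKM + 1 or without any library. Depth is unknown, so its effect on the low values of SIRT4, HDAC10 and HDAC11 was not tested.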
